A study of Mus musculus with 6 samples.

Results

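The nuclear genes for respiratory complexes II to V were taken as every row of the deposited table whose symbol starts with a succinate dehydrogenase (Sdha to Sdhd, Sdhaf), cytochrome bc1 (Uqcr, Uqcc, Cyc1), cytochrome c (Cycs), cytochrome c oxidase (Cox4 to Cox8, Cox10 to Cox19, Cox20) or ATP synthase (Atp5) stem. Names ending in -ps, which mark pseudogenes and numbered 10, were left out. This gave 68 of the 55401 rows, of which 8 belong to complex II, 12 to complex III, 1 is cytochrome c, 29 belong to complex IV and 18 to complex V. Symbols were the only criterion, so assembly factors and tissue isoforms are members beside the subunits, and so are 2 further entries, Cox6c2, which shares 61.7% of its 31-base words with Cox6c, and Cox20b, which shares 39.3% with Cox20. Atp5o is listed under a pair of identifiers, and the second of them had a count of 0 in every library.

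The RNA came from bone marrow-derived macrophages of C57BL/6 mice, grown for 7 days in 40 ng/mL M-CSF, the cytokine that drives marrow precursors to become macrophages, with 10% serum. Of the 6 libraries 3 are labelled Mettl3 KO and 3 wild type (WT); Mettl3 encodes the methyltransferase that writes N6-methyladenosine on messenger RNA. The labels mention a treatment after the 7 days without naming it, and how Mettl3 was deleted is not given. Whether the 3 libraries of a group stem from separate mice or separate dishes is not stated, and the p-values below cover the spread among these libraries alone, which may be technical.

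Complexes II to V sit in the inner mitochondrial membrane. Complex II passes electrons from succinate to ubiquinone, complex III passes them on to cytochrome c, and complex IV hands them to oxygen. Complexes III and IV pump protons, and complex V lets those protons flow back through a rotating ring to make ATP. Complex II is built from nuclear genes alone, while complexes III, IV and V also contain subunits encoded by mitochondrial DNA. In macrophages, oxidation of succinate and the activity of the chain are known to change with inflammatory activation.

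The libraries held 67280390 to 77997742 estimated counts each, and the 68 members together took 0.486% to 0.525% of them. Of 16256 genes with enough counts for a test, 1139 were called higher and 921 lower with the KO label, by edgeR's quasi-likelihood test at a Benjamini-Hochberg adjusted p under 0.05. Mettl3 itself stood at 2.50, 2.56 and 2.93 FPKM in the libraries labelled KO and at 2.62, 2.91 and 2.26 FPKM in the WT libraries (log2 fold change 0.02 with an SE of 0.11, edgeR adjusted p = 0.93). FPKM is a fragment count scaled for transcript length and library size. The targeted gene was therefore not lower where the label says KO, its exons overlap those of Tox4 on the other strand, and directions below are those of the libraries as labelled. The macrophage genes Csf1r (683, 684 and 694 FPKM in libraries labelled KO, against 568, 570 and 569 FPKM in WT libraries) and Cd68 were abundant in all 6 libraries. The neutrophil marker Ly6g and the T cell marker Cd3e were at or near 0. Of 6 tested neutrophil markers Mpo rose (0.682, 0.530 and 0.447 FPKM in libraries labelled KO and 0.186, 0.263 and 0.140 FPKM in WT libraries) and Ltf fell, and 1 of 4 fibroblast markers rose (Dcn, log2 fold change 0.69, edgeR adjusted p = 0.0337). Of 6 macrophage markers 3 rose and 1 fell. The summed FPKM of the 7 neutrophil markers was 44.4 to 54.4 in the libraries labelled KO and 51.2 to 57.8 in the WT libraries, and that of the 5 T and NK cell markers, of which 0 passed, was 6.35 to 6.51 in the libraries labelled KO and 5.05 to 5.73 in the WT libraries. The 4 fibroblast markers summed to 1.36 to 1.49 FPKM with the KO label and 1.29 to 1.52 FPKM in WT. Cd79b, a B cell receptor gene, had 1.44, 1.55 and 1.51 FPKM in the libraries labelled KO and 2.02, 1.99 and 1.91 FPKM in the WT libraries, groups that did not overlap (log2 fold change -0.41, edgeR adjusted p = 0.071). Of the 4 B cell markers tested 0 passed, with 2 log2 fold changes below 0 and 2 above. The 4 erythroid markers had too few counts to test and summed to at most 0.0294 FPKM with the KO label and 0.155 FPKM in WT. The part of these differences in the results below was not tested, and in bulk RNA fewer cells of a type and less RNA per cell cannot be told apart.

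Most tested members of complexes II to V lay slightly lower in the libraries labelled KO, but few passed the test, and the share that passed was close to that of all genes. Of the 61 members tested, 2 rose and 6 fell. That is 13.1% called in either direction, against 12.7% of all tested genes. Both members that rose, Sdhaf1 and Uqcc3, encode assembly factors, and they are 3.28% of the tested members beside 7.01% of all tested genes. All 6 that fell, Sdhb, Sdhc, Uqcrc1, Atp5a1, Atp5c1 and Atp5pb, encode structural subunits, and they are 9.84% of the tested members beside 5.67% of all tested genes. For each of the 8, an exact permutation of the 6 FPKM values (two-sided) gave p = 0.1, the smallest that 3 libraries against 3 allow. A further 7 members had too few counts to test, namely Cox4i2, Cox6b2, Cox7b2, Cox8b, Cox8c, Cox20b and the second Atp5o entry.

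Log2 fold changes were below 0 for 45 of the 61 tested members (73.8%), beside 50.7% of all tested genes. Their median was -0.11, with a range of -0.67 to 0.41, and the median of all tested genes was -0.005. These genes are more abundant than most, with a median of 23.5 FPKM over the 68 rows beside 2.84 FPKM over all tested genes, so the same counts were taken among genes with a mean of at least 10 FPKM. There 1 of 44 members rose and 6 fell, which is 2.27% and 13.6%, beside 14.7% and 13.4% of the 3966 genes at that level. Above that floor the share of falls was close to that of all genes and the share of rises was smaller; these shares are given without a test, and the 44 members remain more abundant, with a median of 43.4 FPKM beside 22.2 FPKM. In 34 of the 44 (77.3%) the log2 fold change was below 0, beside 52.0% of the 3966 genes, and the median was -0.10 beside -0.01. In FPKM, 16 of the 61 members (26.2%) had all libraries labelled KO below all WT libraries, beside 14.6% of all tested genes, and 5 (8.20%) had them all above, beside 19.1%. At 10 FPKM or more these shares were 31.8% of members beside 24.0% of genes below, and 6.82% beside 28.3% above.

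**Figure D1:**
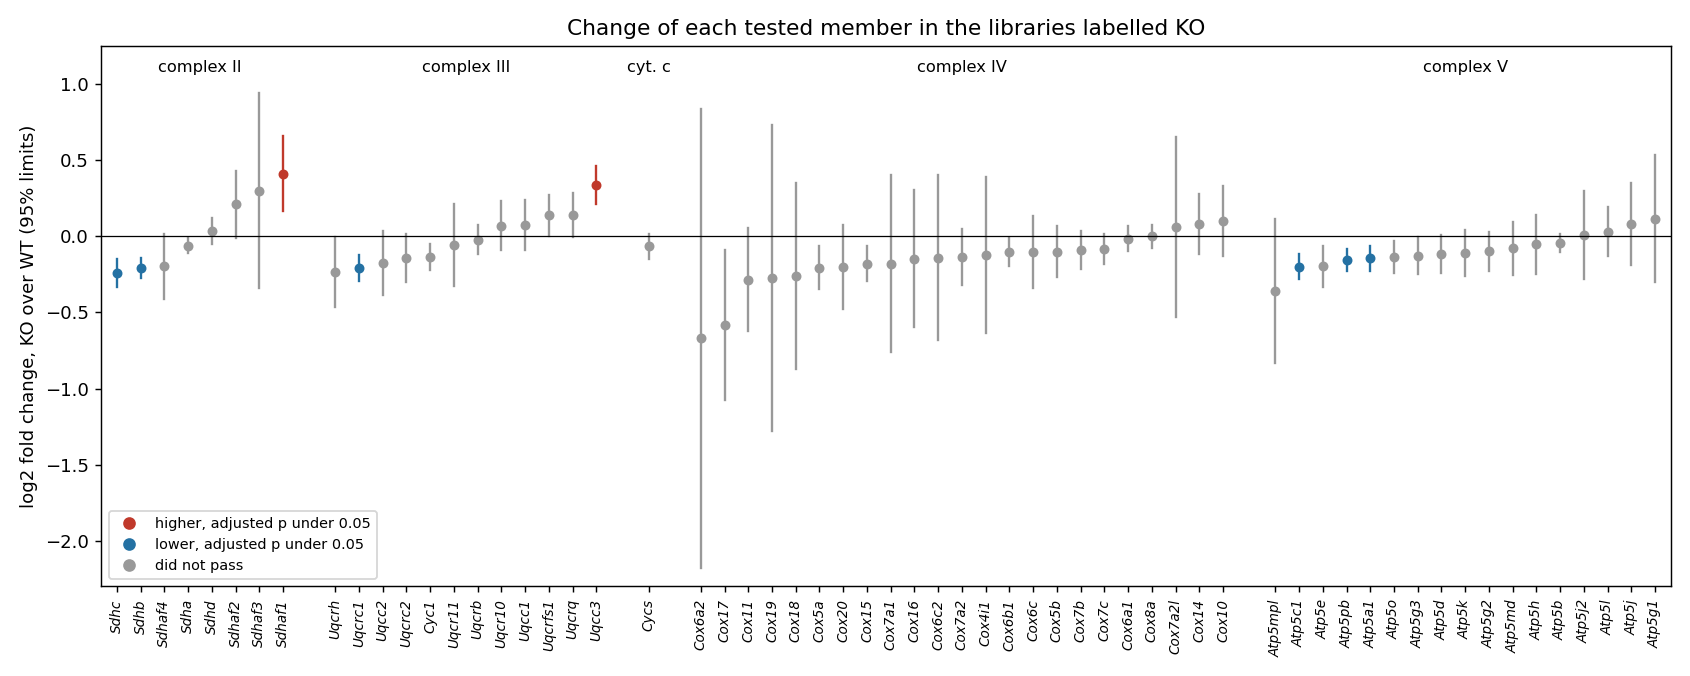
Log2 fold change (vertical axis, libraries labelled KO over WT) of each of the 61 tested members, grouped by complex and ordered within it, with 95% limits as bars (n = 3 libraries a group). Coloured points passed the test (2 higher, 6 lower); no complex IV member is coloured, although 20 of its 23 points lie below 0.

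By role, 41 subunit genes were tested, of which 0 rose and 6 fell (median log2 fold change -0.10). In 32 of them the change was below 0. Among the 16 assembly factors 2 rose and 0 fell, with 9 below 0 and a median of -0.16. At an unadjusted p under 0.05 by the same test, 15 subunit genes (36.6%) and 4 assembly factors (25.0%) passed in either direction, beside 26.5% of all tested genes and 46.2% of those at 10 FPKM or more. The difference between subunits and assembly factors was not tested.

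Promoter windows of 3 called members are shown because they place the members' differences beside the sequence in front of each gene. They run 250 bases up to the RefSeq transcription start (GRCm38.p6, the mm10 build), 5′ to 3′ on the strand of the gene. Capitals mark matches to the letters searched on both strands: NRF1 (GCGCA, any base, then GCGC), an ETS site (CCGGAAGT), YY1 (AAGATGGC) and the GC box (GGGCGG). NRF1 and the ETS factor GABP are known regulators of respiratory genes.
Sdhb, chr4:140961021-140961270, plus strand: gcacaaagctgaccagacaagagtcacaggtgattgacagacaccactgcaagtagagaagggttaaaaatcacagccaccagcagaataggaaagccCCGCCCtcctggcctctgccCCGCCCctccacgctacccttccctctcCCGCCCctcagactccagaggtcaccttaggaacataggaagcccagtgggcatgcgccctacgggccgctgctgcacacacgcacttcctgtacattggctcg
Atp5c1, chr2:10080433-10080682, minus strand: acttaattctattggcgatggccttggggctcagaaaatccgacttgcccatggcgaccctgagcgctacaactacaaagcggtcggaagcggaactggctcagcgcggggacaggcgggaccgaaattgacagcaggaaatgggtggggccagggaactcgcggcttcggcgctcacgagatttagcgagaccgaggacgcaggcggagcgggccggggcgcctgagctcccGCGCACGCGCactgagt
Uqcc3, chr19:8880934-8881183, minus strand: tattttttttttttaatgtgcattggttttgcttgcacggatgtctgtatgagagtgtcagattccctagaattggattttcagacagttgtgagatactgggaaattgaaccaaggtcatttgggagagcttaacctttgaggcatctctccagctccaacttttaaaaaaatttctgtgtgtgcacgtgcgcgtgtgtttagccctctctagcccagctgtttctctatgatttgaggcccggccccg
The Sdhb window holds 3 GC boxes, the Atp5c1 window 1 NRF1 match close to the start, and the Uqcc3 window none of the 4 motifs. Across the 51 members with a RefSeq window, 8 (15.7%) held an NRF1 match, beside 3.73% of the 32817 mouse promoter windows of the same length. These were Sdha, Sdhd, Uqcc2, Cox6a1, Atp5c1, Atp5g2, Atp5h and Atp5k, and of them only Atp5c1 passed the test. ETS matches stood in 5 windows (9.80%, beside 2.88%), a YY1 match in 1 (1.96%, beside 1.56%) and GC boxes in 23 (45.1%, beside 32.7%). A match is a run of letters and no evidence of binding.

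In complex II the iron-sulfur subunit and an anchor subunit fell, and an assembly factor rose. Of its 8 members 1 rose and 2 fell, 4 lay below 0, and the median log2 fold change was -0.01. The calls are 12.5% and 25% of the members, beside 7.01% and 5.67% of all tested genes. Both genes that fell lay above 10 FPKM, and 13.4% of the genes at 10 FPKM or more were called lower. The median was -0.13 for the 4 subunits and 0.25 for the 4 assembly factors. Sdhb (chromosome 4, 140961203 to 140979193, plus strand) carries the iron-sulfur clusters that relay electrons inside the complex. It had 50.7, 51.7 and 52.1 FPKM in the libraries labelled KO, against 57.8, 59.0 and 59.7 FPKM in the WT libraries. The groups did not overlap, and the libraries within each lay close together (log2 fold change -0.21 with an SE of 0.028, edgeR adjusted p = 0.00555). Sdhc (chromosome 1, 171127165 to 171150603, minus strand), which anchors the enzyme in the membrane and helps to bind ubiquinone, had 23.2, 23.8 and 22.5 FPKM in the libraries labelled KO and 26.4, 27.8 and 27.1 FPKM in the WT libraries. It also separated the groups, with a log2 fold change of -0.24, an SE of 0.038 and an edgeR adjusted p of 0.00984.

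The remaining catalytic and anchor genes of complex II did not pass. Sdha, the flavoprotein that oxidises succinate, averaged 63.0 ± 0.41 FPKM in the libraries labelled KO and 65.0 ± 1.0 FPKM in the WT libraries (SD, n = 3 each; log2 fold change -0.06, edgeR adjusted p = 0.12). Sdhd, the second anchor and the most abundant member of the complex, had 108, 114 and 112 FPKM in the libraries labelled KO and 111, 104 and 107 FPKM in the WT libraries. Its groups overlapped, with 95% limits on the log2 fold change of -0.05 to 0.12, so of the anchor pair Sdhc fell and Sdhd gave no call.

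Of the complex II assembly factors Sdhaf1 rose, at 3.78, 4.36 and 3.69 FPKM in the libraries labelled KO and 2.87, 3.20 and 2.74 FPKM in the WT libraries (chromosome 7, 30321406 to 30323895, minus strand). SDHAF1 helps to insert iron-sulfur clusters into SDHB. The groups did not overlap (log2 fold change 0.41 with an SE of 0.10, edgeR adjusted p = 0.0485), yet the call was lost whichever single library was left out, with edgeR adjusted p from 0.0589 to 0.13. An antisense gene, E130208F15Rik, overlaps 69.6% of its exonic bases and had a count of 0 in every library. Sdhaf2, which adds flavin to SDHA, had a log2 fold change of 0.21, Sdhaf3 of 0.30 and Sdhaf4 of -0.20, and none of the 3 passed (edgeR adjusted p of 0.21, 0.55 and 0.22).

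In complex III, a core protein fell and an assembly factor rose, and the catalytic subunits gave no call. Of 12 members 1 rose and 1 fell, 7 lay below 0, and the median log2 fold change was -0.04. Each call is 8.33% of the members, beside 7.01% of all tested genes higher and 5.67% lower. Among genes at 10 FPKM or more, where both called members lay, these shares were 14.7% and 13.4%. Uqcrc1 (chromosome 9, 108936633 to 108949623, plus strand) encodes a core protein on the matrix side of the complex. Its level was 20.8, 21.7 and 21.5 FPKM in the libraries labelled KO and 25.1, 23.7 and 24.5 FPKM in the WT libraries. Every library labelled KO lay below every WT library (log2 fold change -0.21 with an SE of 0.036, edgeR adjusted p = 0.0128), and the call was lost without KO replicate 1 (edgeR adjusted p = 0.0501). The other core gene, Uqcrc2, averaged 26.9 ± 2.2 FPKM in the libraries labelled KO and 29.3 ± 1.0 FPKM in the WT libraries (SD, n = 3 each) and did not pass (log2 fold change -0.14, edgeR adjusted p = 0.24).

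Uqcc3 (chromosome 19, 8880014 to 8880923, minus strand), a small factor needed to stabilise newly made cytochrome b, gave the largest rise of the complex. It had 26.6, 26.8 and 25.9 FPKM in the libraries labelled KO, against 21.0, 20.1 and 20.8 FPKM in the WT libraries. The gap between groups was several times the spread within them (log2 fold change 0.34 with an SE of 0.052, edgeR adjusted p = 0.00864). Its partners Uqcc1 and Uqcc2 had log2 fold changes of 0.07 and -0.17 and did not pass (edgeR adjusted p of 0.57 and 0.27).

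Among the subunits that carry electrons, Cyc1, which encodes cytochrome c1, had 25.8, 25.8 and 26.3 FPKM in the libraries labelled KO and 28.6, 28.4 and 27.5 FPKM in the WT libraries. These groups did not overlap, but the gene missed the threshold (log2 fold change -0.13 with an SE of 0.035, edgeR adjusted p = 0.0542). Uqcrfs1, the Rieske iron-sulfur protein, had 40.8, 43.5 and 42.8 FPKM in the libraries labelled KO and 37.8, 40.6 and 36.0 FPKM in the WT libraries (log2 fold change 0.14, edgeR adjusted p = 0.18). So Cyc1 lay below WT and Uqcrfs1 above it, and neither passed. Uqcrh, a small hinge subunit, had the most negative value of the complex, at 74.5, 74.2 and 70.0 FPKM in the libraries labelled KO and 79.0, 98.4 and 76.9 FPKM in the WT libraries. WT replicate 2 stood apart from its group there (log2 fold change -0.23 with an SE of 0.096, edgeR adjusted p = 0.18). Uqcr10, the most abundant member, had 113, 94.8 and 100.4 FPKM in the libraries labelled KO and 97.1, 98.8 and 94.4 FPKM in the WT libraries, with overlapping groups. Cytochrome c, the mobile carrier between complexes III and IV, is encoded by Cycs and had 20.1, 19.8 and 19.4 FPKM in the libraries labelled KO against 20.5, 19.9 and 20.8 FPKM in the WT libraries (log2 fold change -0.07 with an SE of 0.034, edgeR adjusted p = 0.29).

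**Figure D2:**
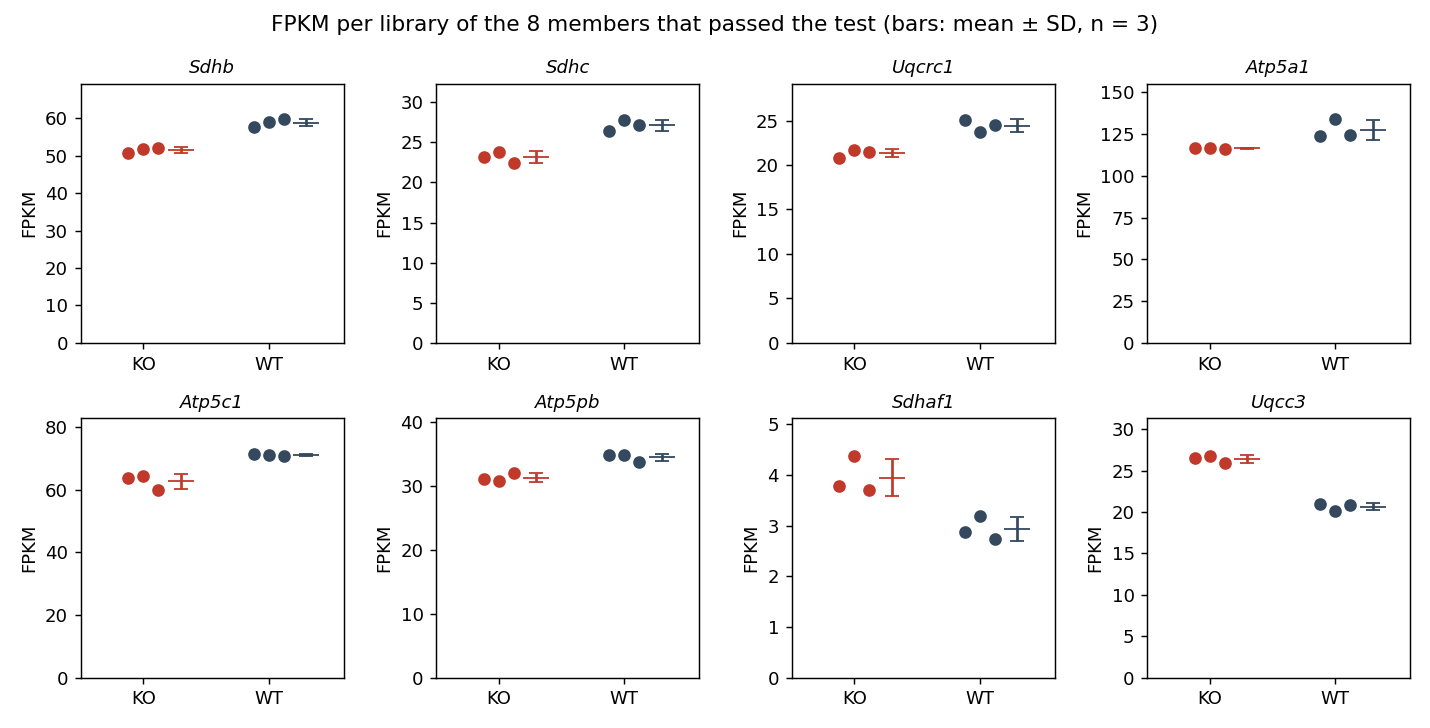
FPKM (vertical axis, from 0) in each library of the 8 members that passed the test, libraries labelled KO on the left and WT on the right, with the mean and SD of 3 libraries beside the points. In all 8 panels the groups do not overlap, which selection by the test favours, beside 33.8% of all tested genes in either direction. In the 6 subunit genes the gap is small beside the level.

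In complex IV no member passed, although nearly all pointed downward. Of 29 members 23 were tested, 20 lay below 0, and the median log2 fold change was -0.14, the lowest of the 4 complexes. That rank did not hold for subunits alone. The 11 complex IV subunits had a median of -0.10, beside -0.13 in complex II, -0.06 in complex III and -0.11 in complex V. The complex IV assembly factors had a median of -0.20 and the 2 tested tissue isoforms of -0.43. At an unadjusted p under 0.05 by edgeR there were 4 (17.4%, below the 26.5% of all tested genes), namely Cox15, Cox5a, Cox17 and Cox6b1. DESeq2 called 3 lower, and its share over all genes is not given here. Cox5a, a subunit that forms a pair with COX4, had 30.6, 34.6 and 32.7 FPKM in the libraries labelled KO and 37.5, 38.8 and 35.3 FPKM in the WT libraries. Its groups did not overlap (log2 fold change -0.21 with an SE of 0.059, edgeR adjusted p = 0.0741). Cox15, which makes heme A for the catalytic centre, had 6.36, 6.24 and 6.48 FPKM in the libraries labelled KO and 7.33, 6.80 and 7.27 FPKM in the WT libraries (log2 fold change -0.18 with an SE of 0.048, edgeR adjusted p = 0.0573).

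The 9 complex IV assembly factors in the rule were low, at 1.53 to 13.8 FPKM, and 7 lay below 0. Cox17, the copper chaperone of the complex, had 2.07, 2.18 and 2.32 FPKM in the libraries labelled KO and 4.15, 3.29 and 2.29 FPKM in the WT libraries. Only WT replicate 3 overlapped the other group (log2 fold change -0.58 with an SE of 0.20, edgeR adjusted p = 0.13). Without that library the gene was called lower (log2 fold change -0.78, edgeR adjusted p = 0.0213). No other fit with a library left out called Cox17. Cox10, which works before Cox15 in heme A synthesis, had the largest value above 0 in the complex, at 5.13, 4.47 and 4.67 FPKM in the libraries labelled KO and 4.19, 4.87 and 4.08 FPKM in the WT libraries (log2 fold change 0.10, edgeR adjusted p = 0.57). Cox20 shares 91.1% of its exonic bases with Hnrnpu on the opposite strand, and Hnrnpu stood at 32.6 ± 1.2 FPKM in the libraries labelled KO and 33.2 ± 3.2 FPKM in the WT libraries (SD, n = 3 each). The Cox20 value therefore cannot be told apart from reads of that neighbour.

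Complex IV holds the most abundant members of all. Cox8a had 238, 247 and 248 FPKM in the libraries labelled KO and 236, 244 and 244 FPKM in the WT libraries. Cox6b1 had 193, 211 and 198 FPKM in the libraries labelled KO, against 213, 211 and 217 FPKM in the WT libraries (log2 fold change -0.11, edgeR adjusted p = 0.14). Cox6a1 had 181, 187 and 186 FPKM in the libraries labelled KO and 183, 180 and 191 FPKM in the WT libraries. These 3 subunits varied little within a group, and for Cox8a and Cox6a1 the 95% limits on the log2 fold change, -0.07 to 0.07 and -0.10 to 0.07, were narrow around 0.

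The next pair of the complex in order of level did not share that tightness. Cox7a2l, which encodes a factor linked to supercomplexes, had 104.6, 170.3 and 109.4 FPKM in the libraries labelled KO and 157.9, 98.6 and 107.6 FPKM in the WT libraries. Its coefficient of variation was 28.6% in the libraries labelled KO and 26.3% in the WT libraries, where the median of the 44 members at 10 FPKM or more was 3.33% with the KO label and 4.08% in WT. Cox4i1, which encodes the common isoform of subunit 4, had 89.2, 143 and 105 FPKM in the libraries labelled KO and 116, 97.9 and 149.9 FPKM in the WT libraries. The high libraries were KO replicate 2 and WT replicate 1 for Cox7a2l, and KO replicate 2 and WT replicate 3 for Cox4i1. Their log2 fold changes, 0.06 and -0.12, changed sign with single libraries left out, and the 95% limits reached from -0.53 to 0.65 and from -0.64 to 0.39.

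**Figure D3:**
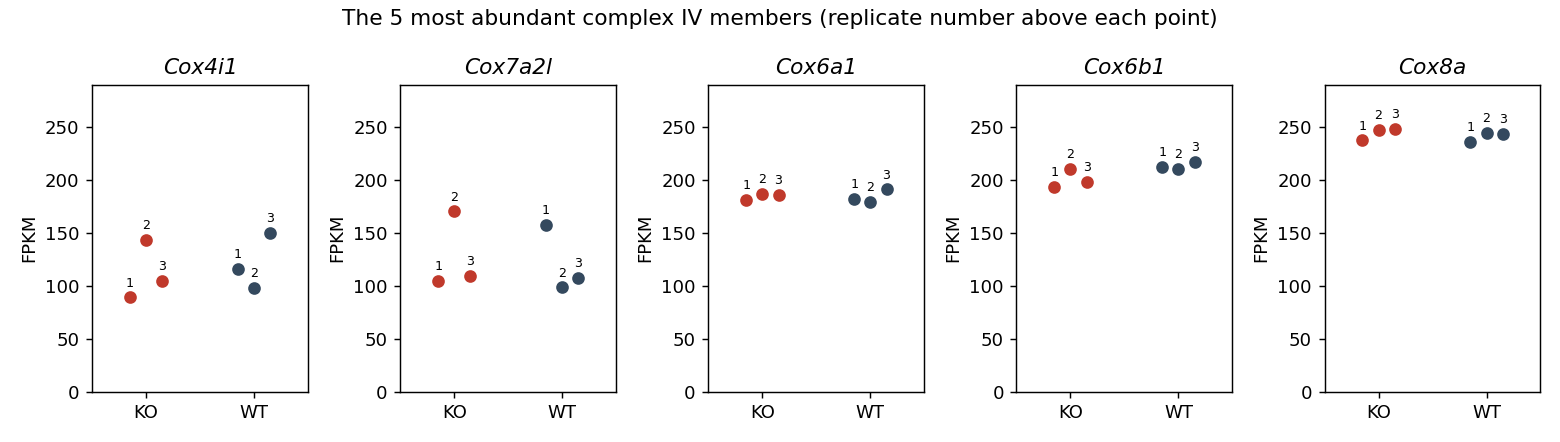
FPKM (vertical axis, from 0) of the 5 most abundant complex IV members in each library, libraries labelled KO on the left and WT on the right, with replicate numbers above the points. Cox4i1 and Cox7a2l spread widely within both groups, while Cox6a1, Cox6b1 and Cox8a do not.

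Several complex IV subunits exist as pairs of a widely used and a tissue-restricted isoform, and the macrophages held the widely used one throughout. Cox4i2, the isoform known from lung, averaged 0.116 FPKM over the 6 libraries, against 117 for Cox4i1. The heart and muscle isoforms Cox6a2 and Cox7a1 averaged 0.647 and 1.46 FPKM, against 185 for Cox6a1 and 46.6 for Cox7a2. Testis isoforms were lower still. Cox6b2 had a count of 0 in all libraries labelled KO and 18, 0 and 8 estimated counts in the WT libraries, and Cox7b2 and Cox8c, with the muscle isoform Cox8b, had a count of 0 in all 6, while Cox7b averaged 66.6 FPKM. Cox6a2 had the most negative log2 fold change of all members, -0.67, but its SE was 0.63: it had 25, 40 and 20 estimated counts in the libraries labelled KO and 78, 28 and 19 in the WT libraries. WT replicate 1 alone was high, and without it the log2 fold change was 0.17.

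**Figure D4:**
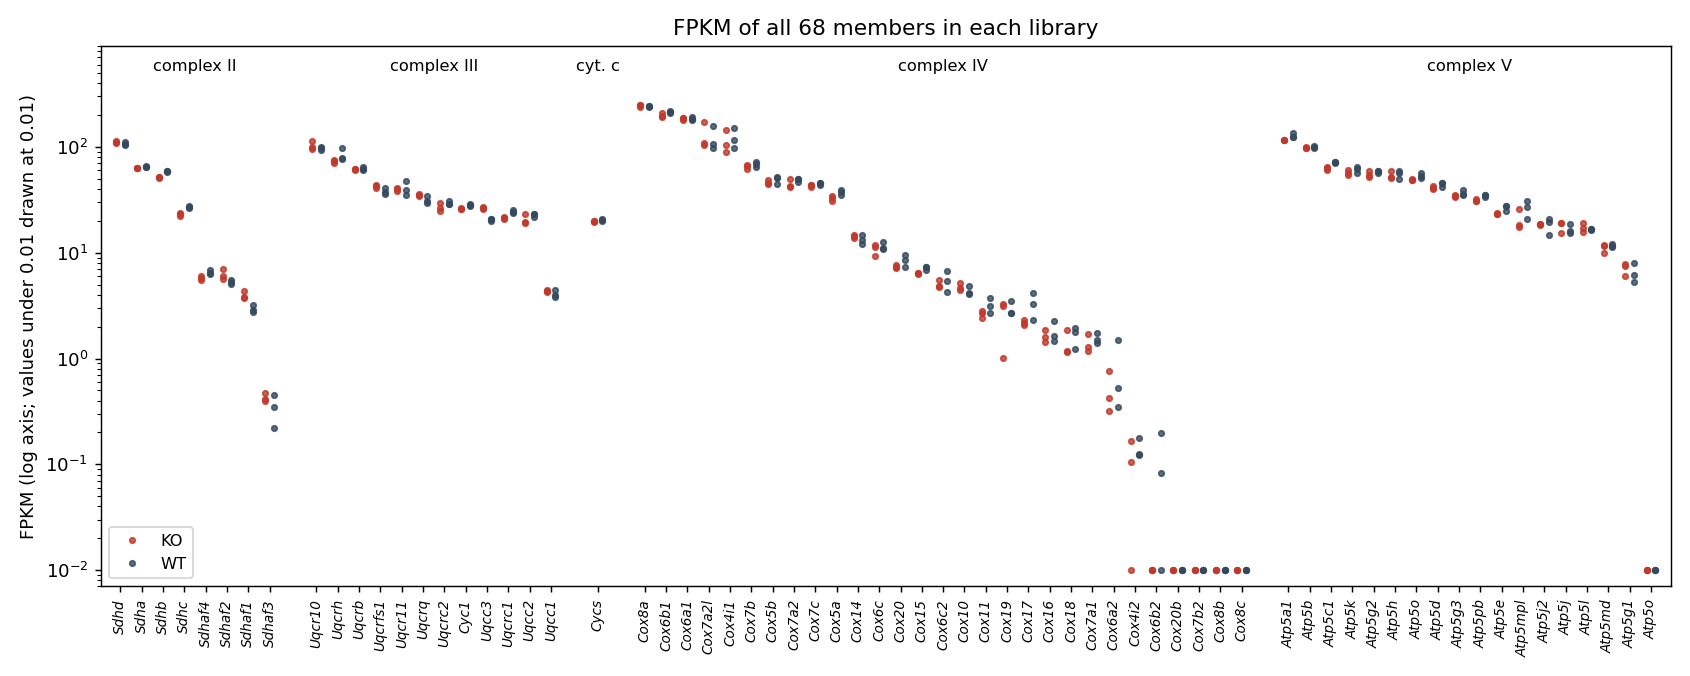
FPKM (vertical axis, log scale) of all 68 members in each library, grouped by complex and ordered by level, libraries labelled KO in red and WT in dark blue. Values under 0.01, which stand for a count of 0 in the deposited table, are drawn at 0.01; the tissue isoforms of complex IV fill the low end.

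In complex V, 3 subunits fell and none of the 17 tested members rose. The falls are 17.6% of the tested members, beside 5.67% of all tested genes and 13.4% of those at 10 FPKM or more. In 13 of the 17 the log2 fold change was below 0, and the median was -0.11. The FPKM values of the 18 members summed to 704, 728 and 714 in the libraries labelled KO and to 751, 778 and 764 in the WT libraries, so the sums did not overlap. Nor did those of complex II, at 263 to 269 with the KO label and 271 to 276 in WT, while the complex III sums, at 474 to 485 with the KO label and 463 to 505 in WT, and the complex IV sums, at 1087 to 1261 with the KO label and 1149 to 1226 in WT, did. Sums also lay apart in other sets. With the KO label they were lower for rows with a complex I symbol (970 to 1012, WT 1027 to 1032), names ending in -ps included. They were also lower for mitochondrial membrane genes (438 to 443, WT 456 to 462). For citric acid cycle genes they were higher (257 to 259, WT 246 to 255). In that list only Ogdh had a log2 fold change above 0 (43.8 to 44.9 FPKM with the KO label, 30.2 to 31.9 FPKM in WT). The other 12 lay below 0. Also lower were the sums of further complex V assembly or inhibitor genes (76.0 to 80.0, WT 81.2 to 88.1). Regulators of respiratory genes (69.9 to 72.9, WT 63.1 to 67.5) and further complex III assembly genes (4.65 to 5.02, WT 4.14 to 4.53) were higher. Supercomplex and shared factors were higher and barely apart (153.43 to 157.4, WT 152.0 to 153.36). Sums of further complex IV assembly genes and of mitochondrially encoded subunits overlapped. The sums were not tested.

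The catalytic head and central stalk of ATP synthase hold a pair of the called genes. Atp5a1 (chromosome 18, 77773729 to 77782869, plus strand) encodes the alpha subunit and had 116.7, 116.6 and 116.1 FPKM in the libraries labelled KO and 123, 134 and 124 FPKM in the WT libraries. The 3 libraries labelled KO were nearly equal and all below WT (log2 fold change -0.14 with an SE of 0.034, edgeR adjusted p = 0.0403). The call held only without WT replicate 2 among the 6 ways to leave out a library, with edgeR adjusted p up to 0.11 in the other 5. Atp5b, the catalytic beta subunit, had 99.4, 97.99 and 97.5 FPKM in the libraries labelled KO and 99.5, 98.1 and 103 FPKM in the WT libraries and did not pass (log2 fold change -0.04, 95% limits -0.10 to 0.01, edgeR adjusted p = 0.29). Atp5c1 (chromosome 2, 10056016 to 10080444, minus strand), the gamma subunit that turns inside the head, had 63.8, 64.4 and 59.8 FPKM in the libraries labelled KO, against 71.3, 71.3 and 70.8 FPKM in the WT libraries. Its groups were well apart (log2 fold change -0.20 with an SE of 0.035, edgeR adjusted p = 0.0144), with the call lost without WT replicate 1 or 2 (highest edgeR adjusted p = 0.0537). The stalk subunits Atp5d and Atp5e had log2 fold changes of -0.12 and -0.20 and did not pass (edgeR adjusted p of 0.21 and 0.0715). Atp5e was called lower without WT replicate 1 (edgeR adjusted p = 0.0303) and in no other fit with a library left out.

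Of the peripheral stalk, which holds the head still, Atp5pb (chromosome 3, 105942698 to 105960099, minus strand) fell. It had 31.001, 30.7 and 32.0 FPKM in the libraries labelled KO and 34.7, 34.8 and 33.8 FPKM in the WT libraries (log2 fold change -0.16 with an SE of 0.030, edgeR adjusted p = 0.0191). The groups did not overlap, but the call was lost without KO replicate 1 or 2 or WT replicate 1 or 2 (highest edgeR adjusted p = 0.0714). Atp5o, Atp5h and Atp5j, the other stalk subunits, had log2 fold changes of -0.14, -0.05 and 0.08 and did not pass. Of the 5 small membrane subunits none passed; Atp5mpl lay lowest, at 17.4, 26.2 and 18.4 FPKM in the libraries labelled KO and 21.0, 30.7 and 26.8 FPKM in the WT libraries, with overlapping groups (log2 fold change -0.36 with an SE of 0.20, edgeR adjusted p = 0.31).

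The proton-carrying c ring is made of one protein encoded by 3 genes. Atp5g2 was the most abundant at 51.7, 58.6 and 54.8 FPKM in the libraries labelled KO and 59.6, 56.1 and 58.9 FPKM in the WT libraries. Atp5g3 had 34.1, 33.3 and 35.2 FPKM in the libraries labelled KO and 36.2, 35.2 and 39.4 FPKM in the WT libraries (log2 fold change -0.13, edgeR adjusted p = 0.17). Atp5g1 was lowest, at 7.45, 5.98 and 7.88 FPKM in the libraries labelled KO and 6.15, 8.04 and 5.26 FPKM in the WT libraries (log2 fold change 0.12, edgeR adjusted p = 0.74). The order Atp5g2, Atp5g3, Atp5g1 was the same in each library, and none of the 3 passed.

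Many of these genes have near-identical processed copies elsewhere in the genome, and part of their reads can be counted there. Rows that share at least 20% of their 31-base words with a member took 19.5% to 32.0% of the summed estimated counts for Atp5g1 over the 6 libraries, and 18.8% to 28.8% for Uqcr11. The same share was 15.7% to 24.0% for Atp5h, 19.8% to 23.4% for Atp5l and 18.9% to 23.5% for Atp5g2. Values of these members are therefore uncertain. Of the called members, Atp5pb had 2.14% to 3.50% and Atp5c1 at most 0.0673%, and no such row was found for Sdhb, Sdhc, Sdhaf1, Uqcrc1, Uqcc3 or Atp5a1. The copy Gm10039 of Atp5g1, named after its values were seen, shares 92.9% of its words with that gene and stood at 21.6, 19.9 and 24.5 FPKM in the libraries labelled KO and 32.2, 29.4 and 29.6 FPKM in the WT libraries. It fell (log2 fold change -0.48 with an SE of 0.098, edgeR adjusted p = 0.024). When the counts of such rows were added to their members, an alternative chosen after seeing the data, the same 2 members rose and the same 6 fell, and Atp5g1 moved to a log2 fold change of -0.03.

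**Figure D5:**
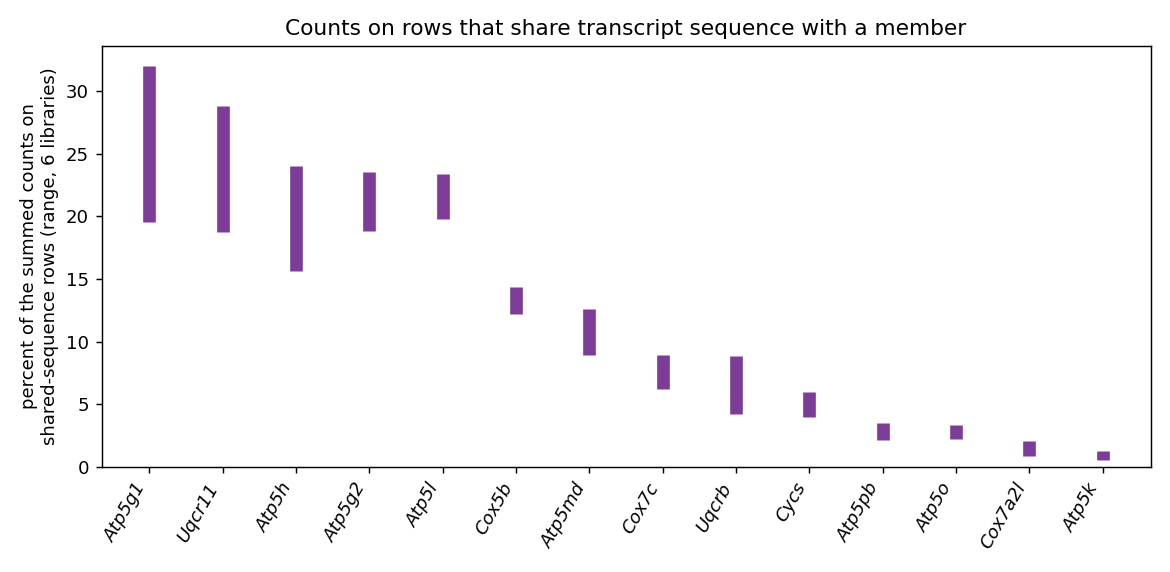
Percent of the summed estimated counts of a member and its sequence-sharing rows that lay on those rows (vertical axis, from 0), as the range over the 6 libraries, for members with the largest shares. Atp5g1, Uqcr11, Atp5h, Atp5g2 and Atp5l exceed 15% in every library, and Atp5pb, the only called member drawn, stays below 4%.

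Outside the members, genes of the same machinery were counted in the same way. Of all tested genes 7.01% were called higher and 5.67% lower. The lists below are short, and their counts were not tested against those shares. Of 14 complex IV assembly genes with other names 2 rose, Coa5 (47.5, 47.4 and 46.4 FPKM in the libraries labelled KO and 42.0, 43.1 and 42.5 FPKM in the WT libraries, edgeR adjusted p = 0.0135) and Coa6 (7.20, 8.80 and 7.65 FPKM in the libraries labelled KO and 5.56, 4.82 and 5.92 FPKM in the WT libraries, edgeR adjusted p = 0.0445). Their log2 fold changes were 0.13 and 0.52. COA6 is known as a copper-handling partner in building the complex. None of 3 further complex III assembly genes, 5 complex V assembly or inhibitor genes, and 8 supercomplex and shared factors passed. Of 42 tested rows with a complex I symbol 0 rose and 2 fell (Ndufs7, log2 fold change -0.20, and Ndufb6, -0.34). Of these 42 rows 33 lay below 0, with a median of -0.06. That list was taken by symbol and kept Ndufa12-ps, Ndufs5-ps and Ndufb1-ps. It also held Ndufb4c and Ndufs6b, and Ndufa4, which is counted among the shared factors too.

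Of 13 tested citric acid cycle genes Ogdh rose, at 43.8, 44.0 and 44.9 FPKM in the libraries labelled KO and 31.9, 31.5 and 30.2 FPKM in the WT libraries (log2 fold change 0.49 with an SE of 0.029, edgeR adjusted p = 0.000267). OGDH feeds the cycle at the step that leads to succinate, the substrate of complex II; the other 12 gave no call and all lay below 0. Of 13 tested regulators of respiratory genes 2 rose. Ppargc1b, a coactivator of mitochondrial gene programmes, had 3.16, 3.55 and 3.05 FPKM in the libraries labelled KO and 2.06, 2.32 and 1.85 FPKM in the WT libraries (log2 fold change 0.63, edgeR adjusted p = 0.0137), and the log2 fold change of Yy1 was 0.22 (edgeR adjusted p = 0.0125). Slc25a5, an ADP/ATP carrier, was the 1 of 13 mitochondrial membrane genes that fell (log2 fold change -0.11, edgeR adjusted p = 0.0162). Across these lists and the mitochondrially encoded subunits of the complexes, 5 genes rose and 3 fell. Over all tested genes 7.01% were called higher and 5.67% lower.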

How the data were processed

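RNA was sequenced from 6 libraries, 3 labelled KO and 3 labelled WT, grouped by the genotype label. The deposited table gives 2 values per gene and library, per the file headers: an FPKM computed by the authors, and an estimated count, deposited as whole numbers. The submitters' processing notes name StringTie 1.3.4d, HISAT2 2.0.4, cutadapt 1.9 and build mm10, while the sources used here give neither the annotation release nor the strand setting. A count of 0 carries an FPKM of 0.0001. Of estimated counts from 1 to 20, 38.8% were multiples of 4, so low values are no tally of reads and no counting interval was computed.

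After rounding, the estimated counts went into edgeR 4.0.16 under R 4.3.3 (TMM, filterByExpr with minimum count 10 and minimum total 15, glmQLFit and glmQLFTest), adjusted over 16256 genes and called at an adjusted p under 0.05. SE is the absolute log2 fold change over the square root of F, and 95% limits use the t distribution with 4.50 to 6.50 degrees of freedom. Shared sequence was counted in words of 31 bases of GENCODE M21 transcripts. Promoters are from RefSeq, GRCm38.p6. Members, lists and tests were chosen with earlier results of these data known. Values are given for up to 4 called members per complex, the most abundant member, the largest changes, the paralog sets, Cyc1 and Cycs. They are also given for up to 2 called genes of each further list. Most are per library, while some paralogs and list genes have only a mean, a log2 fold change or a direction. Haus1, Gm10039, and the members described outside this rule (such as Sdha, Uqcrfs1, Uqcrc2, Cox5a, Cox15, Cox17, Cox20 and Atp5b) were added after their values were seen. No label says that same-numbered libraries pair, so the main test has no pairing. Alternatives were DESeq2 1.42.0, limma 3.58.1 on log2(FPKM + 0.1, 1 or 0.01), other scalings and filters, a replicate block, and each library left out. One marker list is reported only in part here.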

Additional observations from a re-analysis of the deposited data

How the results depend on the processing

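With a replicate block, 552 genes rose and 460 fell over all tested genes, and among the members 0 rose and 2 fell (Sdhb and Sdhc), with 0 higher in complexes II and III and 0 lower in complexes III and V. The correlations of deviations of same-numbered libraries were -0.021, -0.014 and 0.015. With 3 libraries a group they cannot decide whether same-numbered libraries were prepared together, and no label says so. With each library left out in turn, 683 to 744 genes rose and 534 to 614 fell over all tested genes, a design with fewer samples. Among the members 1 rose in each of these fits, Uqcc3, and 3 to 6 fell, with 0 higher in complex II, 0 to 1 lower in complex III, 0 to 1 in complex IV and 1 to 2 in complex V; the lowest count, 3, came without KO replicate 1. Sdhb, Sdhc and Uqcc3 were called in all 6 fits. DESeq2 called 11 members lower, with 2 in complex III and 3 in complex IV, adding Atp5e, Cox15, Cox17, Cox5a and Cyc1. For DESeq2 and the filter and limma fits below, the share called over all genes is not given here. Their member counts therefore have no background beside them. A minimum mean of 1 FPKM gave 2 lower in complex III, 1 in complex IV and a complex II median of -0.0672. No count filter left 1 member higher, with 0 in complex II. Each of the 3 limma pseudocounts called 2 lower in complex III. The complex III median ran from -0.0872 to -0.00867 with single libraries left out. In the further lists together, 3 genes rose and 1 fell with the block, 3 to 4 rose and 0 to 5 fell with a library left out, and 7 and 5 fell with DESeq2 and with the FPKM minimum.

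Signs turned only in genes that were not called. Library totals and limma with pseudocounts 0.1, 1 and 0.01 gave Cox6a1 log2 fold changes of 0.00222, 0.00213, 0.00212 and 0.00213 and Cox8a 0.0164, 0.0159, 0.0158 and 0.0159. Over the fits with a library left out, the log2 fold change ran from -0.0132 to 0.301 for Atp5g1 (-0.0315 with shared-sequence rows added), -0.336 to 0.0589 for Cox4i1, -0.0322 to 0.0127 for Cox6a1, -1.075 to 0.165 for Cox6a2, -0.1995 to 0.297 for Cox7a2l, -0.0160 to 0.0198 for Cox8a, -0.0661 to 0.112 for Mettl3 and -0.00274 to 0.124 for Uqcr10. Where a fit did not have fewer libraries, the cause of a moved count was not tested.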

Other observations

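The subunits of these complexes that mitochondrial DNA encodes were far above the nuclear members, and none of the 6 tested passed. mt-Co1, the catalytic subunit of complex IV, had 8367, 8206 and 9410 FPKM in the libraries labelled KO and 9625, 9460 and 9483 FPKM in the WT libraries (log2 fold change -0.15, SE 0.050, edgeR adjusted p = 0.11). mt-Atp6, a membrane subunit of complex V, had 1944, 357 and 2389 FPKM in the libraries labelled KO and 411, 1849 and 431 FPKM in the WT libraries (edgeR adjusted p = 0.63). Its high libraries were KO replicates 1 and 3 and WT replicate 2, which are not the high libraries of Cox4i1 or Cox7a2l.

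A pair of the called ATP synthase genes overlap antisense neighbours. Wdr77 covers 8.21% of the exonic bases of Atp5pb and averaged 3.14 ± 0.14 FPKM in the libraries labelled KO and 2.67 ± 0.69 FPKM in the WT libraries (SD, n = 3 each; log2 fold change 0.22, edgeR adjusted p = 0.54). Haus1 covers 4.12% of the exonic bases of Atp5a1 and had 0.377, 0.401 and 0.421 FPKM in the libraries labelled KO and 0.608, 0.523 and 0.523 FPKM in the WT libraries. Haus1, named after its values were seen, also fell (log2 fold change -0.48, edgeR adjusted p = 0.046), at a level far under that of Atp5a1. Without a stated strand setting, reads of such pairs cannot be told apart where they overlap.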
